A study of Mus musculus with 20 samples.

Results

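The genes described here are 10 genes of the NF-kappaB system: the subunits Nfkb1, Nfkb2, Rela and Relb, the inhibitors Nfkbia and Nfkbib, the ubiquitin regulators Tnfaip3 and Birc3, and the adhesion targets Icam1 and Vcam1. They were found in the count table by matching Ensembl identifiers to these symbols, and all 10 were present among 55416 identifiers. All 10 had enough reads to be among the 14471 genes tested. The question was whether any of them differed between secretome-treated and control quadriceps 3 h after an injection.

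NF-kappaB is a family of dimeric transcription factors that rest in the cytoplasm, bound by IkappaB proteins. Tumor necrosis factor, interleukin-1 and Toll-like receptors activate the IkappaB kinases, the inhibitor is degraded, and the dimer enters the nucleus. Among its targets are its own inhibitors, which end the response, and the adhesion molecules by which endothelial cells hold passing leukocytes. In muscle, the pathway is known from inflammation after injury and from wasting.

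All mice were male, wild-type C57BL/6J animals of 26 to 28 months that had fasted for 4 h. Control mice (n = 10) received 50 µL of saline and treated mice (n = 10) received 50 µL of a pluripotent stem cell secretome, each as 1 intramuscular injection, and the injected quadriceps was collected 3 h later. According to the methods, the secretome product was made from the culture medium of human embryonic stem cells. They give a 0.4% dilution in saline for the course of repeated injections, and state none for the single injection. ICAM-1 protein is listed among the contents of that product, while the counts here are mouse transcripts. Every library was made from a different mouse, and no untreated muscle was included, so the effect of the needle itself cannot be told apart from that of either fluid.

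Each library held between 13286983 and 22987237 reads counted on genes. The share taken by Ttn, which encodes titin, followed the library numbers: 7.02% to 11.03% in libraries 1 to 5 (control 1 to 5), 16.4% to 21.1% in libraries 6 to 15 (control 6 to 10 and secretome 1 to 5) and 14.2% to 14.7% in libraries 16 to 20 (secretome 6 to 10). The labels name no batch, and outside libraries 6 to 15 the library range and the treatment cannot be told apart, so the difference of each member is also given within libraries 6 to 15, and those of other genes where they move there. The tissue carried its label: the 8 myofibre markers (Acta1, Ckm, Myh4 and others) summed to between 79940 and 158500 normalised counts (CPM, reads per 1000000 after scaling for library composition) in every muscle. The extraction protocol in the labels speaks of myotubes, although the source is given as quadriceps. None of the 10 lymphocyte markers passed the filter on low counts, and 5 of 10 neutrophil markers did. The neutrophil markers summed to 107 CPM in control 3, 63.1 CPM in secretome 7 and 119 CPM in secretome 8, against at most 24.7 CPM in the other 17 muscles.

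Promoter sequences were taken from RefSeq, on the GRCm38.p6 build, for the 7 members with an entry (all but Nfkb1, Relb and Vcam1). The sequences shown are those of members with at least 1 match to the kappaB consensus of 10 letters, or to the 9-letter pattern GGNNNTTCC, read on both strands. They belong to Icam1 (chr9:21015690-21015939, plus strand), Nfkbia (chr12:55492648-55492897, minus strand), Tnfaip3 (chr10:19015411-19015660, minus strand) and Nfkb2 (chr19:46304487-46304736, plus strand), and each holds the 250 bases before the start site, 5′ to 3′ on the strand of the gene. Capitals mark the matches, and overlapping matches run together.
Icam1: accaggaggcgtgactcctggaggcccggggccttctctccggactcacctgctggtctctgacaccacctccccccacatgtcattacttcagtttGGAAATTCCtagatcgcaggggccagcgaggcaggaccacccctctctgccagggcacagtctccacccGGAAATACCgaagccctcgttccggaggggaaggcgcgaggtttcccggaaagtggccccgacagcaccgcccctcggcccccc
Nfkbia: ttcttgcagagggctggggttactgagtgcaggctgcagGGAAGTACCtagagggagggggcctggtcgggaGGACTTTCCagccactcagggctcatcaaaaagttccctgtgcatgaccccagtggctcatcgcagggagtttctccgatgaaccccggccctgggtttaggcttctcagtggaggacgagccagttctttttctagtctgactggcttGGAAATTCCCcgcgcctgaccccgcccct
Tnfaip3: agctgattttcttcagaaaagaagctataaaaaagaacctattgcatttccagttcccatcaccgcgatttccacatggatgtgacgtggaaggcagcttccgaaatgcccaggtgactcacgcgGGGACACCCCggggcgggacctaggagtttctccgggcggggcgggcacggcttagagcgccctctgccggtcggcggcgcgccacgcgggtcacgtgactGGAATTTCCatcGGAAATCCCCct
Nfkb2: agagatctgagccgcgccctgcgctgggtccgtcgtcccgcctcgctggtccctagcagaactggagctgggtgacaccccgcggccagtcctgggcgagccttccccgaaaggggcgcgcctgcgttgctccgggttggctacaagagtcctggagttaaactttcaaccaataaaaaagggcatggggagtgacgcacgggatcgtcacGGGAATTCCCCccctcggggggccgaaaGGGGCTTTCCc

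The consensus was present before the start site of Nfkb2, Nfkbia and Tnfaip3, 3 of the 7 members with an entry, against 7.25% of 32851 promoters in the RefSeq table. The 9-letter pattern, which was chosen after the sequences had been seen, was present in those 3 members and in Icam1, against 15.66% of all promoters. Counted from the start site, the matches of Icam1 began at -153 and -84, those of Nfkbia at -211, -178 and -29, and the last match of Tnfaip3, to the consensus, at -12. The windows of Rela, Nfkbib and Birc3 held no match to these letters. Nfkb2 has 2 further start sites in the table and Tnfaip3 has 1, each with a match of its own. A match is a description of the letters and not evidence of a bound site.

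Per length of exon, the inhibitors were the most abundant of the 10 transcripts and the adhesion and ubiquitin-editing genes the least. The median RPKM (CPM per kilobase of summed exon) over the 20 muscles was 14.2 for Nfkbia and 11.1 for Nfkbib, which encode IkappaB alpha and IkappaB beta. Nfkb2 followed with 7.20 RPKM and Rela with 6.57 RPKM. Relb had 3.54 RPKM, Nfkb1 3.17 RPKM and Birc3 2.76 RPKM. At the low end were Icam1 with 1.53 RPKM, Tnfaip3 with 1.10 RPKM and Vcam1 with 0.439 RPKM.

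**Figure D1:**
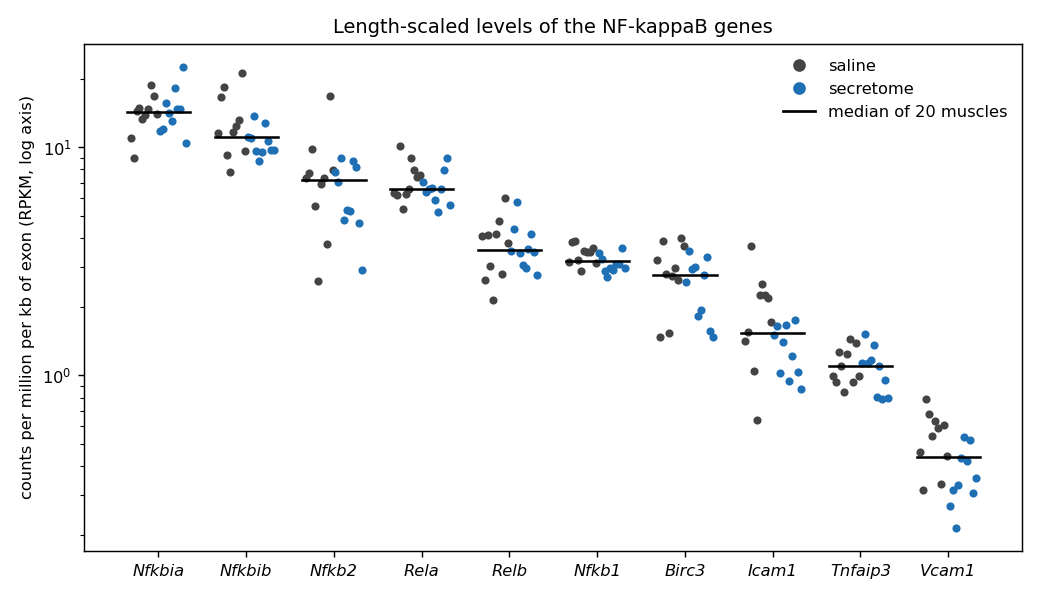
Length-scaled level (RPKM, log axis) of the 10 genes in each of the 20 muscles, control in grey and secretome-treated in blue, with the median as a line. The medians run from 14.2 RPKM for Nfkbia to 0.439 RPKM for Vcam1, and the clouds of neighbouring genes overlap.

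The ranges over the 20 muscles overlapped for every pair of neighbours in this order. Within a muscle, however, some steps held throughout: Nfkbib was above Nfkb2, Rela above Relb, and Tnfaip3 above Vcam1 in 20 of 20 muscles, and Birc3 was above Icam1 in 19. Nfkb2 was above Rela in only 12 of 20 muscles and Nfkb1 above Birc3 in 13, so these neighbours cannot be ordered. The place of Nfkb1 depended on its length. Its summed exons span 12061 bases in the annotation, and with the length of the longest coding transcript, 4117 bases, it moved to the third place and 6 of the 10 genes kept their position.

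Across all 20 muscles, no member passed a 5% false discovery rate in edgeR's quasi-likelihood test, where 1 of the 14471 genes (0.00691%) did. DESeq2 likewise called no member, against 1.25% of 17310 genes. At an unadjusted p under 0.05, edgeR found 2 of the 10 members lower after the secretome, Icam1 and Vcam1, where 9.21% of all tested genes were lower at that level. DESeq2 also found these 2 at that level. Leaving out 1 muscle gave from 1 member (without control 3) to 4 members (without control 1, 4, 5 or 10) at that level in edgeR. The estimate was lower after the secretome for 9 of the 10 members, with a median log2 fold change of -0.18, while 55.9% of all tested genes were lower, with a median of -0.03. In whole muscle, fewer cells of a type and less RNA per cell cannot be told apart.

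**Figure D2:**
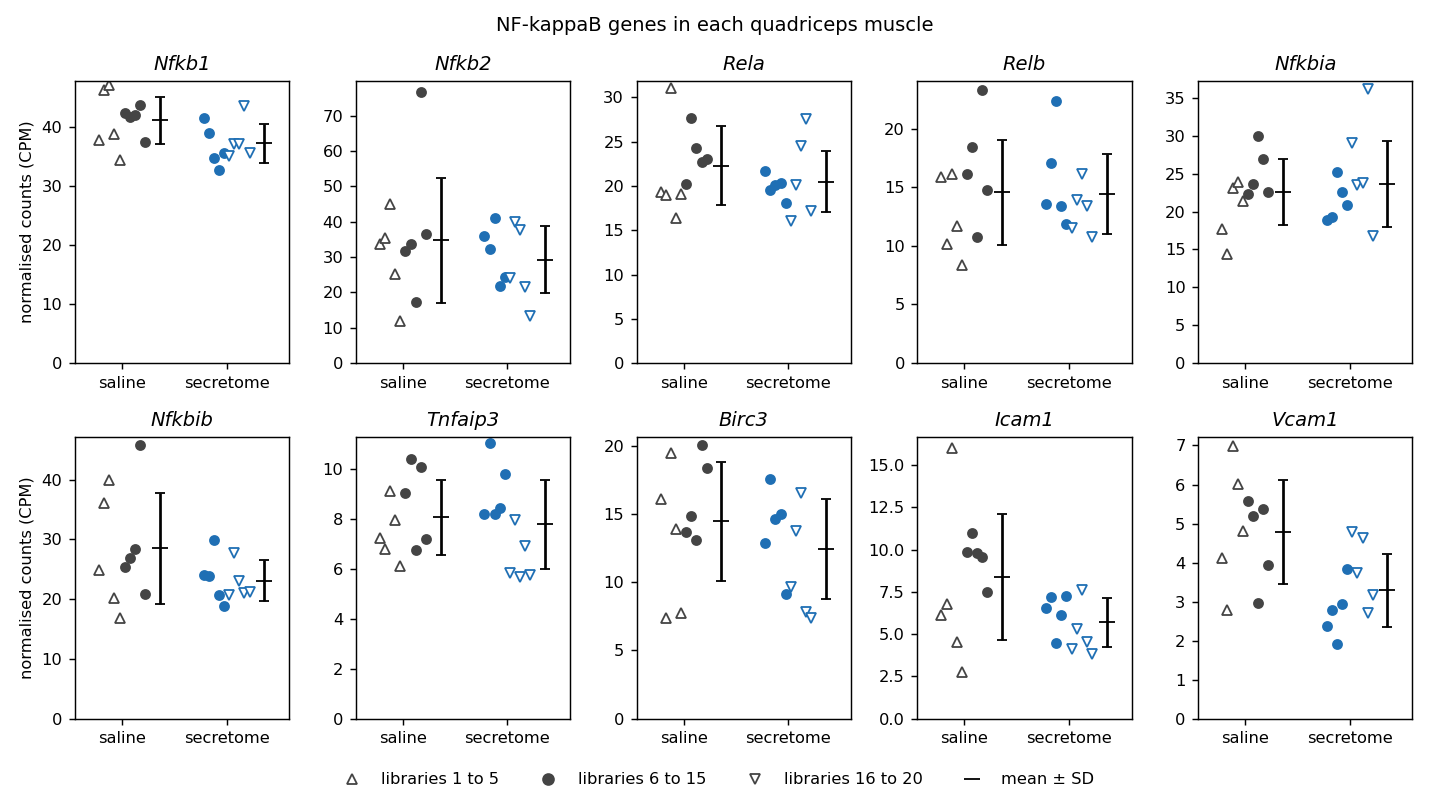
Normalised counts (CPM) of each gene in each muscle, with the mean ± SD of each treatment (n = 10). Filled circles are libraries 6 to 15, and the open triangles are libraries 1 to 5 (control) and 16 to 20 (secretome). Among libraries 6 to 15, the Icam1 values of the treated muscles all lie below those of the controls, while the other 9 genes overlap between treatments.

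Within libraries 6 to 15 (n = 5 per treatment), 3 of the 10 members were lower at an unadjusted p under 0.05 in edgeR, Icam1, Vcam1 and Rela, where 4.88% of all tested genes were lower at that level. No gene of the 14471 passed the false discovery rate there in edgeR, though 1432 had an unadjusted p under 0.05, and DESeq2 called no member. Leaving out 1 of these muscles gave from 2 to 5 members at an unadjusted p under 0.05 in edgeR, 5 without secretome 3. Icam1 was the only member whose treatments did not overlap, which held, in the lower direction, for 158 genes (1.09%). In the other 10 libraries, where the library range and the treatment coincide, edgeR found 0 of the 10 members at an unadjusted p under 0.05, against 16.2% of all tested genes.

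The subunits showed small differences. Nfkb1 encodes a precursor that is cut to the DNA-binding partner of RelA, and its level was the steadiest of the 10 genes, with 41.1 ± 3.99 CPM (SD, n = 10) in control and 37.2 ± 3.30 CPM in treated muscle. It lay between 34.5 and 47.0 CPM in controls, with a median of 41.8, and between 32.7 and 43.4 CPM after the secretome, with a median of 36.3. Of the treated muscles, 9 of 10 were below the control median, and the groups overlapped. The log2 fold change was -0.15 (SE 0.071, edgeR unadjusted p = 0.0525, adjusted p = 0.323), and -0.16 (SE 0.092, edgeR unadjusted p = 0.0975, adjusted p = 0.563) within libraries 6 to 15. A permutation test of this gene alone gave p = 0.0288 over 20 muscles, and the exact permutation test gave p = 0.0476 within libraries 6 to 15, both without adjustment.

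Rela encodes the main activating subunit. In libraries 6 to 15, it had 20.2, 27.7, 24.3, 22.7 and 23.1 CPM in control 6 to 10 and 21.7, 19.6, 20.1, 20.3 and 18.1 CPM in secretome 1 to 5. All 5 treated muscles were below the control median, but secretome 1 and secretome 4 exceeded control 6. The log2 fold change there was -0.23 (SE 0.10, edgeR unadjusted p = 0.0400, adjusted p = 0.492). This unadjusted p rested on single muscles: it was 0.128 without control 7 in the same edgeR test, with a log2 fold change of -0.17, and it exceeded the threshold in 6 of the 10 fits that left out 1 muscle. The exact permutation test of Rela alone gave p = 0.0238 in libraries 6 to 15, without adjustment. Over all 20 muscles, Rela ranged from 16.4 to 31.1 CPM in controls and from 16.02 to 27.5 CPM in treated muscle, and the log2 fold change was -0.12 (SE 0.11, edgeR adjusted p = 0.614). The highest control was control 3, the control muscle with the highest neutrophil markers.

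Nfkb2 and Relb form the dimer of the noncanonical branch, which answers to lymphotoxin and CD40 rather than to tumor necrosis factor. Nfkb2 varied more than any other member, from 11.9 CPM in control 5 to 76.5 CPM in control 9, with a control median of 33.7 and a treated median of 28.4 CPM. Its log2 fold change was -0.25 (SE 0.26, 95% interval from -0.78 to 0.29, edgeR adjusted p = 0.658), with -0.32 in libraries 6 to 15, so neither a lower nor a higher level can be told at this spread. Relb ranged from 8.33 to 23.3 CPM in controls and from 10.7 to 22.4 CPM after the secretome, with a log2 fold change of -0.02 (SE 0.16, edgeR adjusted p = 0.970) and of -0.08 in libraries 6 to 15. Control 9, the highest for Nfkb2, was also the highest for Relb, Nfkbib and Birc3.

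Exons of Nfkb2 overlap 2 genes on the opposite strand in the annotation, AC114539.1 over 11.6% of their length and Psd over 6.52%. Those of Nfkbib overlap Ccer2 over 14.5% and Sirt2 over 1.94%, those of Icam1 overlap the antisense gene Gm47079 over 11.7%, and those of Vcam1 overlap Gm43109 over 0.69%. The libraries carried the strand, but the strand setting of the count is not given in the sources used here.

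The estimates for the inhibitors differed in sign, and neither passed the false discovery rate. Nfkbia, the IkappaB that is rebuilt within hours of NF-kappaB activation, had 22.6 ± 4.34 CPM in control and 23.6 ± 5.64 CPM in treated muscle (SD, n = 10 each), a log2 fold change of 0.06 (SE 0.13, edgeR adjusted p = 0.836). It ranged from 14.4 CPM in control 2 to 30.02 CPM in control 8, with a median of 22.9, and from 16.8 CPM in secretome 10 to 36.2 CPM in secretome 9, with a median of 23.1. The groups overlapped almost fully. In libraries 6 to 15, Nfkbia had 22.3, 23.7, 30.02, 26.9 and 22.6 CPM in control and 18.9, 19.3, 25.3, 22.6 and 20.9 CPM in treated muscle, a log2 fold change of -0.22 (SE 0.12, edgeR adjusted p = 0.549). In the other libraries, the log2 fold change was 0.37 (SE 0.20, edgeR adjusted p = 0.384).

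The direction of the Nfkbia estimate thus differed between libraries 6 to 15 and the others. In the others, control and treated muscles come from different library ranges, so treatment and range cannot be told apart. The interaction test therefore cannot show that the effect of treatment changed with the range. For Nfkbia, this interaction of treatment and library set (6 to 15 or other) gave a log2 difference of -0.59 (SE 0.24, edgeR unadjusted p = 0.0229, adjusted p = 0.348). Nfkbia was the 1 of 10 members at an unadjusted p under 0.05, where 11.1% of all tested genes were. Leaving out secretome 9, its highest muscle, left no member at that level. Nfkbib, which encodes a slower-turning IkappaB, ranged from 16.8 to 45.8 CPM in controls, with a median of 26.1, and from 18.8 to 29.9 CPM after the secretome, with a median of 22.1. The treated muscles lay within the range of the controls, and 8 of 10 were below their median. The log2 fold change was -0.30 (SE 0.15, edgeR unadjusted p = 0.0535, adjusted p = 0.324) and -0.31 (SE 0.19, edgeR adjusted p = 0.577) within libraries 6 to 15.

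The differences of the ubiquitin regulators were within their spread, and neither passed an unadjusted p under 0.05 in edgeR. Tnfaip3 encodes an induced ubiquitin-editing enzyme that shuts off signalling from tumor necrosis factor and Toll-like receptors. It ranged from 6.12 to 10.4 CPM in controls, with a median of 7.57, and from 5.67 to 11.01 CPM in treated muscle, with a median of 8.06. The log2 fold change was -0.05 (SE 0.13, 95% interval from -0.33 to 0.22, edgeR adjusted p = 0.869), with 0.08 in libraries 6 to 15 and -0.20 in the others. Among treated muscles, secretome 1 to 5 had 8.18 to 11.01 CPM and secretome 6 to 10 had 5.67 to 7.93 CPM, so these library ranges did not overlap within the treatment. Birc3, an inhibitor of apoptosis that ubiquitinates components of the receptor complex, ranged from 7.39 to 20.03 CPM in controls and from 7.38 to 17.6 CPM in treated muscle, with a log2 fold change of -0.22 (SE 0.19, edgeR adjusted p = 0.585) and of -0.20 in libraries 6 to 15.

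The adhesion targets gave the largest estimates of the 10 genes. Icam1 encodes the ligand of the leukocyte integrins LFA-1 and Mac-1. In libraries 6 to 15, it had 9.84, 10.96, 9.79, 9.55 and 7.49 CPM in control 6 to 10 and 6.56, 7.20, 4.48, 6.11 and 7.25 CPM in secretome 1 to 5. All treated muscles were below all controls. The level after the secretome was 0.670 times that in control, a log2 fold change of -0.58 (SE 0.16, edgeR unadjusted p = 0.00249, adjusted p = 0.401). The exact permutation test of this gene alone gave p = 0.00794, the smallest that 5 against 5 muscles can give.

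Outside these libraries the Icam1 values were wider. Control 1 to 5 had 6.14, 6.77, 16.03, 4.55 and 2.78 CPM, and secretome 6 to 10 had 4.11, 5.28, 7.61, 4.53 and 3.81 CPM. The groups overlapped, with both the highest and the lowest value among the controls, in control 3 and control 5. Over all 20 muscles, Icam1 had 8.39 ± 3.73 CPM in control and 5.70 ± 1.43 CPM in treated muscle (SD, n = 10 each), and 10 of 10 treated muscles were below the control median of 8.52 CPM. The log2 fold change was -0.56 (SE 0.23, 95% interval from -1.02 to -0.09, edgeR unadjusted p = 0.0209, adjusted p = 0.246). Without control 3, it was -0.40 (edgeR unadjusted p = 0.0628), and the permutation test of the single gene over all 20 muscles gave p = 0.0900.

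Vcam1 encodes the ligand of the alpha4 integrins, and satellite cells, the stem cells of muscle, are known to carry it as well as activated endothelium. It was the lowest of the 10 genes, with 37 to 124 reads per library. Controls 1 to 10 had 4.11, 2.80, 6.97, 6.01, 4.82, 5.57, 5.20, 2.98, 5.38 and 3.95 CPM, and secretome 1 to 10 had 2.37, 2.79, 1.90, 2.93, 3.85, 4.77, 3.74, 4.63, 2.698 and 3.16 CPM. All 10 treated muscles were below the control median of 5.01 CPM, while control 1, 2, 8 and 10 lay within the treated range, so the groups overlapped.

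The mean was 4.78 ± 1.33 CPM in control and 3.29 ± 0.944 CPM in treated muscle (SD, n = 10 each), a log2 fold change of -0.54 (SE 0.18, 95% interval from -0.92 to -0.16, edgeR unadjusted p = 0.00711, adjusted p = 0.189). Within libraries 6 to 15, it was -0.72 (SE 0.23, edgeR unadjusted p = 0.00676, adjusted p = 0.430), where the exact permutation test gave p = 0.0159. In the other libraries, it was -0.37 (SE 0.26, edgeR unadjusted p = 0.175, adjusted p = 0.494). The unadjusted p for Vcam1 over all muscles was below 0.05 in each of the 20 edgeR fits that left out 1 muscle, from 0.00230 to 0.0176.

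**Figure D3:**
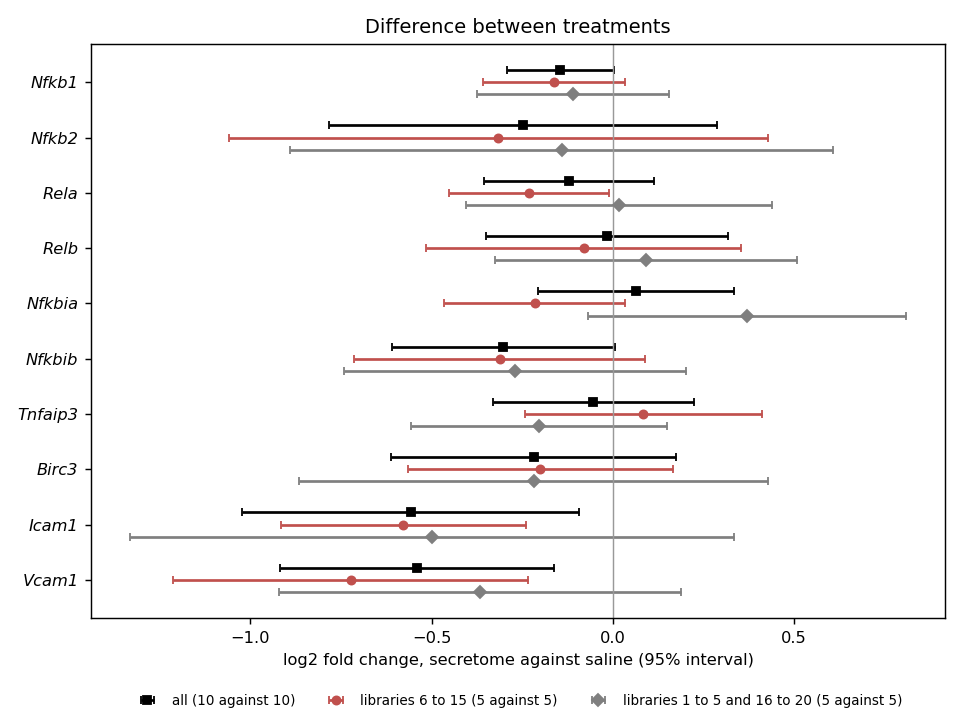
Log2 fold change of each gene, secretome against control, with its 95% interval from edgeR: all muscles (black squares), libraries 6 to 15 (red circles) and the other libraries (grey diamonds). Over all muscles, the intervals of Icam1 (-1.02 to -0.09) and Vcam1 (-0.92 to -0.16) lie below 0. The Nfkbia estimates lie on opposite sides of 0 in the 2 sets of libraries, and both of their intervals include 0.

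The members were also compared with each other by Pearson's r of log2 CPM, as deviations from the treatment mean, over the 20 muscles. Between Icam1 and Vcam1, r was 0.16, and -0.0008 without control 3. The pairs with the highest r were Nfkb2 with Relb (0.81), Relb with Birc3 (0.78) and Nfkb2 with Nfkbib (0.73). Nfkbia and Tnfaip3, both feedback inhibitors, had an r of -0.01. These correlations share library and depth and are descriptions without a test.

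Among 13170 genes of at least 1 CPM on average, those most like Icam1 over the 20 muscles included Slc15a3 (r = 0.90), a lysosomal transporter, and Nlrc5 (r = 0.88), the activator of MHC class I genes. Those most like Vcam1 were Pik3cg (r = 0.88), the catalytic subunit of a leukocyte phosphoinositide kinase, Acsl5 (r = 0.83) and Fcgr2b (r = 0.80), an inhibitory Fc receptor. Those most like Nfkbia were Errfi1 (r = 0.79), Puf60 (r = 0.73) and Map3k6 (r = 0.73). Those most like Tnfaip3 were Psmb9 (r = 0.77), Lrrfip1 (r = 0.76) and the clock gene Per2 (r = 0.75). Within libraries 6 to 15, the r of Icam1 was 0.69 with Slc15a3 and 0.52 with Nlrc5, and that of Vcam1 with Pik3cg was 0.90. For these values, the deviations were still taken from the mean of all muscles of each treatment.

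Macrophage markers, like Icam1 and Vcam1, had lower estimates after the secretome. This held for all 10, where 55.9% of all tested genes were lower. At an unadjusted p under 0.05 in edgeR, 6 of the 10 were lower, against 9.21% of all tested genes. None of the 10 passed the false discovery rate in edgeR. Csf1r (log2 fold change -0.76, edgeR adjusted p = 0.150) and Adgre1 (log2 fold change -0.82, edgeR adjusted p = 0.153) led. DESeq2 called Csf1r at an adjusted p of 0.0455. In libraries 6 to 15, all 10 were lower, with a median log2 fold change of -0.86. At an unadjusted p under 0.05 in edgeR, 7 of them were lower there, against 4.88% of all tested genes. The sum of the macrophage markers lay between 93.8 and 270 CPM in controls, with a median of 139. In treated muscle, it lay between 61.1 and 206 CPM, with a median of 86.5. In libraries 6 to 15, it lay between 93.8 and 198 CPM in control and between 61.1 and 95.2 CPM in treated muscle, so only secretome 2 exceeded the lowest control, control 8. In the other libraries, the sums overlapped widely. They lay between 110.6 and 269.8 CPM in control 1 to 5, with a median of 155.5. In secretome 6 to 10, they lay between 73.29 and 206 CPM, with a median of 146.6. The part of macrophages in the Icam1 and Vcam1 results was not tested.

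**Figure D4:**
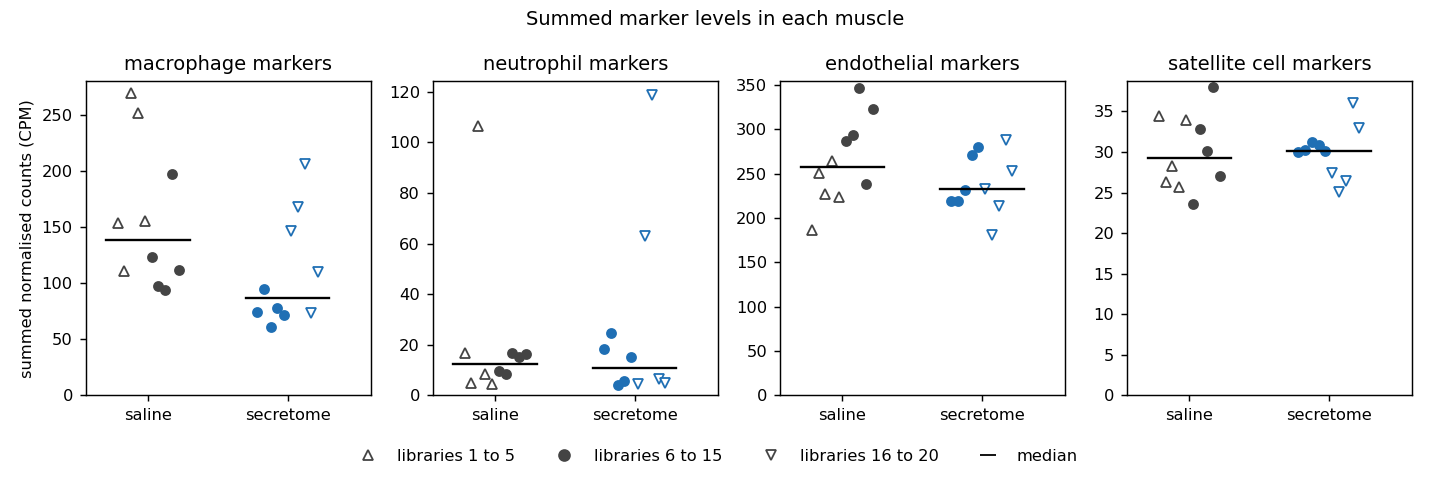
Summed level (CPM) of the macrophage, neutrophil, endothelial and satellite cell markers in each muscle, with the median of each treatment as a line. Filled circles are libraries 6 to 15 and open triangles are the others. The macrophage sums have a lower median in treated muscle (86.5 against 139 CPM). Outside libraries 6 to 15, their medians are 146.6 CPM in secretome 6 to 10 and 155.5 CPM in control 1 to 5. The 3 high neutrophil sums are in control 3, secretome 7 and secretome 8, and the satellite cell sums have almost the same median in both treatments.

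Markers of cells known to carry these adhesion molecules gave the following values. The 10 endothelial markers summed to between 186 and 346 CPM in controls, with a median of 257, and between 181 and 288 CPM in treated muscle, with a median of 232. Of them, 9 had lower estimates, where 55.9% of all tested genes did. Vwf passed an unadjusted p under 0.05 in edgeR (log2 fold change -0.31, adjusted p = 0.306), where 9.21% of all tested genes were lower at that level. Egfl7 followed (-0.31, edgeR adjusted p = 0.377). Within libraries 6 to 15, where the treatments did not overlap for Icam1, the sum had a median of 293 CPM in control and 232 CPM in treated muscle. There, 9 of 10 markers were lower, against 52.0% of all tested genes. At an unadjusted p under 0.05 in edgeR, 3 of the 10 markers were lower there, against 4.88% of all tested genes. They were Vwf (log2 fold change -0.59, edgeR p = 0.000623), Cldn5 (-0.65, p = 0.0179) and Tie1 (-0.25, p = 0.0267). In the other libraries, 5 of the 10 endothelial markers were lower, against 54.6% of all tested genes. Satellite cell markers had a median sum of 29.2 CPM in control and 30.2 CPM in treated muscle, with 2 of the 4 tested markers lower; Pax7, their defining transcription factor, had a log2 fold change of -0.17 (edgeR adjusted p = 0.730), and Myf5 was at -0.05. In libraries 6 to 15, they were at 0.12 and 0.07. The part of endothelial and satellite cells in the Vcam1 result was not tested.

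For several other lists, though not for the mural markers, the direction or size differed within libraries 6 to 15. Of all tested genes, 55.9% were lower over all muscles, 52.0% within libraries 6 to 15 and 54.6% in the other libraries. At an unadjusted p under 0.05 in edgeR, 9.21% were lower over all muscles. Of 6 mural markers, 5 were lower, 2 of them at that level, Acta2 (log2 fold change -0.54, edgeR adjusted p = 0.166) and Pdgfrb (-0.22, edgeR adjusted p = 0.278). Within libraries 6 to 15, 5 of 6 mural markers were also lower, with Acta2 at -0.57 and Pdgfrb at -0.18. The median of the list was -0.25 there and -0.23 over all muscles. All 8 fibroblast markers were lower, none at that level in edgeR, with Dpep1 at -0.51 and Pi16 at -0.64. In the 10 libraries from 6 to 15, Dpep1 was at -0.11 and Pi16 at -0.13, 6 of 8 fibroblast markers were lower, and Lum was higher (0.60, edgeR unadjusted p = 0.00890). Of the myofibre markers, 7 of 8 were higher over all muscles, with Myh4 at 0.35 and Acta1 at 0.16, but 6 of 8 were lower within libraries 6 to 15 (median -0.14), and none was lower in the other libraries (median 0.45). The tested neutrophil markers had a median log2 fold change of 0.92, with S100a9 at 1.37 (edgeR adjusted p = 0.446) and S100a8 at 1.33 (edgeR adjusted p = 0.455). Within libraries 6 to 15, that median was 0.14, with S100a8 at 0.50 and 2 of the 5 markers, S100a9 among them, below 0, and in the other libraries, which hold control 3, secretome 7 and secretome 8, it was 1.19. Lymphocyte markers summed to at most 12.4 CPM in controls and 1.397 CPM in treated muscle.

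Estimates for the rest of the pathway lay on both sides of 0. Of 79 further genes of the NF-kappaB system, 64 were tested and 0 passed the false discovery rate in edgeR. Of their estimates, 26 were higher and 38 lower, with a median log2 fold change of -0.08, where 55.9% of all tested genes were lower. At an unadjusted p under 0.05, 5 were higher and 5 lower, where 15.7% of all tested genes were at that level in either direction. At that level, 1 was higher and 6 lower within libraries 6 to 15, against 9.9% of all tested genes. Of the ligands, 4 of 11 could be tested, and Tnf and Il6, the best known ligand and target, reached at most 32 and 28 reads in a library. Tnfsf13b, which encodes a B cell survival factor, had a log2 fold change of -0.75 (edgeR adjusted p = 0.270) and Tnfsf12 of -0.43 (edgeR adjusted p = 0.404). Tnfsf12 turned sign with the library range, at 0.37 within libraries 6 to 15 and -0.92 in the others.

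Of 10 receptors tested, 6 were lower, near the 55.9% of all tested genes that were lower. Tnfrsf1b, the second receptor of tumor necrosis factor, led with 10.6 ± 5.19 CPM in control and 7.18 ± 2.50 CPM in treated muscle (SD, n = 10 each). Its log2 fold change was -0.56 (edgeR adjusted p = 0.246), followed by Ltbr at -0.23 (edgeR adjusted p = 0.414). Of 15 adaptors and upstream kinases, 9 had higher estimates. At an unadjusted p under 0.05 in edgeR, 3 were higher and 1 was lower. Of all tested genes, 15.7% were at that level in either direction, and 9.21% were lower at that level. Map3k7, the kinase that activates the IkappaB kinases, had 69.9 ± 13.5 CPM in control and 87.8 ± 10.1 CPM in treated muscle, a log2 fold change of 0.33 (edgeR adjusted p = 0.174) and of 0.25 within libraries 6 to 15, and Traf3 was at 0.28 (edgeR adjusted p = 0.287) and 0.11 within libraries 6 to 15. Tab2, which binds that kinase, was the other of the 3, at 0.31, and Ticam1, a Toll-like receptor adaptor, was lower at -0.34. The 6 IkappaB kinase genes split evenly, 3 higher and 3 lower.

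Among the IkappaB kinase genes, Ikbke had 3.66 ± 1.164 CPM in control and 2.06 ± 0.690 CPM in treated muscle. Its log2 fold change was -0.83 (edgeR adjusted p = 0.130), with -0.92 within libraries 6 to 15. DESeq2 called Ikbke at an adjusted p of 0.0295. Ikbkb, the canonical kinase, was at -0.15 (edgeR adjusted p = 0.363). The other Rel and IkappaB genes included Nfkbie at -0.56 (edgeR adjusted p = 0.318) and Nfkbiz at -0.29 (edgeR adjusted p = 0.423). Among 11 further ubiquitin regulators tested, N4bp1 was at 0.16 (edgeR adjusted p = 0.318), or 0.08 within libraries 6 to 15, and Otulin at -0.24 (edgeR adjusted p = 0.335).

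Of 14 other known target genes tested, 11 were lower, where 55.9% of all tested genes were. Traf1, an adaptor that NF-kappaB induces, had 1.88 ± 1.08 CPM in control and 0.823 ± 0.282 CPM in treated muscle, a log2 fold change of -1.19 (edgeR adjusted p = 0.109), with -0.95 in libraries 6 to 15 and -1.46 in the others. DESeq2 called Traf1 at an adjusted p of 0.0131, while edgeR did not. Sod2, the mitochondrial superoxide dismutase, was higher, with 183 ± 33.9 CPM against 233 ± 28.0 CPM and a log2 fold change of 0.35 (edgeR adjusted p = 0.158), although within libraries 6 to 15 it was 0.14. Traf1 and Sod2, both targets of the pathway, thus had estimates of opposite sign.

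**Figure D5:**
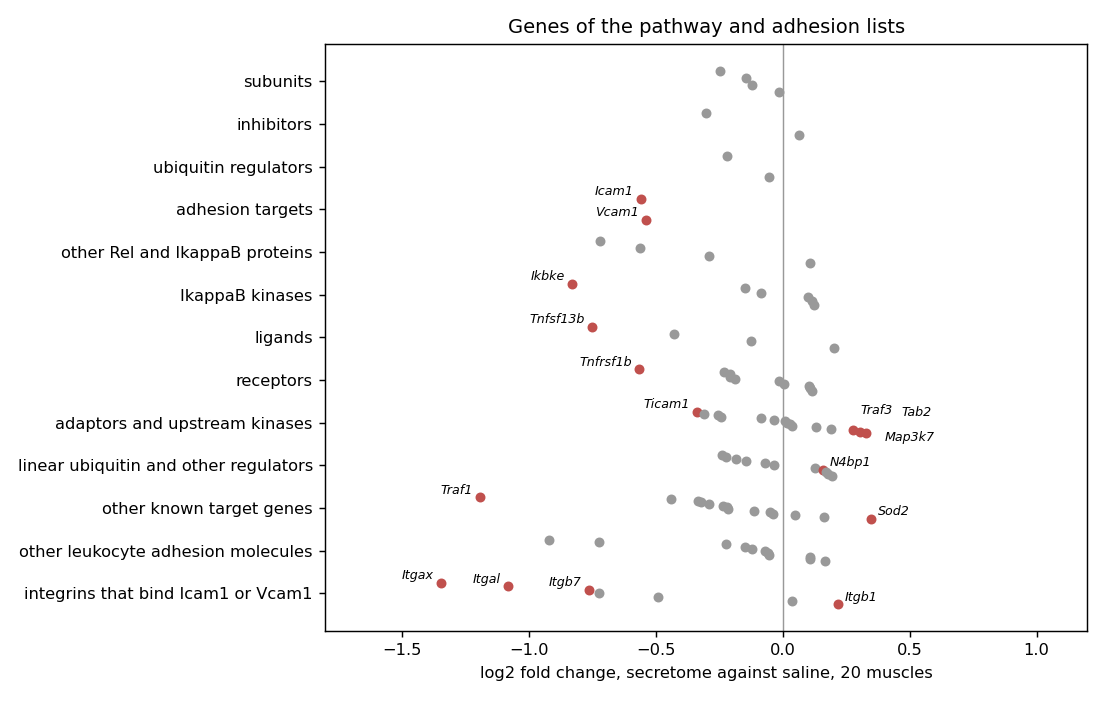
Log2 fold change over 20 muscles of every tested gene of the member, pathway and adhesion lists (1 point a gene), with genes at an unadjusted p under 0.05 in edgeR in red and named. Named genes lie on both sides of 0, from Itgax (-1.35) to Sod2 (0.35), and none passed the false discovery rate in edgeR, while DESeq2 called Traf1, Ikbke and Itgax.

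The integrins that bind ICAM-1 or VCAM-1 are carried by the leukocytes these molecules hold. All 7 of their genes were tested, and 5 were lower, with a median log2 fold change of -0.72, where 55.9% of all tested genes were lower. Itgax, carried by macrophages and dendritic cells, had 2.64 ± 2.52 CPM in control and 1.03 ± 0.479 CPM in treated muscle, a log2 fold change of -1.35 (edgeR adjusted p = 0.150) and of -1.06 within libraries 6 to 15, and DESeq2 called it at an adjusted p of 0.0361. Itgal, the alpha chain of LFA-1, was at -1.08 (edgeR adjusted p = 0.294) and Itgb7 at -0.76 (edgeR adjusted p = 0.242). Of the 7, 4 were lower within libraries 6 to 15 at an unadjusted p under 0.05 in edgeR, against 4.88% of all tested genes. Itgal at -1.37 and Itgb7 at -1.03 were among the 4. Itgb1, which many cells of muscle carry, was at 0.22 (edgeR adjusted p = 0.239) and 0.13 within libraries 6 to 15, and its partner for VCAM-1, Itga4, was at 0.04 (edgeR adjusted p = 0.934), or 0.16 within libraries 6 to 15.

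Of 11 other leukocyte adhesion genes tested, 8 were lower, where 55.9% of all tested genes were, and none had an unadjusted p under 0.05 in edgeR. Sele, the endothelial selectin and a classical NF-kappaB target, had 0.836 ± 0.679 CPM in control and 0.441 ± 0.399 CPM in treated muscle, a log2 fold change of -0.92 (edgeR adjusted p = 0.432). Selplg, a leukocyte ligand of selectins, was at -0.73 (edgeR adjusted p = 0.503).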

How the data were processed

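Bulk RNA-seq was performed on 20 injected quadriceps, 1 per mouse. The deposited values are read counts per gene, without normalization. Per the labels, RNA was made into strand-specific libraries, and the submitters' processing notes name cutadapt 1.16, STAR 2.7.9a, featureCounts 1.6.3, DESeq2 1.34.0 and the GRCm39 build. Identifiers were matched to symbols and exon lengths in GENCODE M21 (GRCm38), which named 52083 of 55416; 174 of 175 listed genes were found. Exon overlaps also come from it.

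In R 4.3.3, low counts were removed with edgeR 4.0.16 (filterByExpr), and the rest were normalized by TMM and tested with the robust quasi-likelihood F-test, treatment as the only term, with Benjamini-Hochberg adjustment over 14471 genes. Each SE was obtained by dividing the log2 estimate by the square root of the F statistic. Intervals cover 95%. Single genes were also compared by two-sided permutation of log2 CPM (prior count 2) with 100000 resamples, or exactly for 5 against 5 muscles. Fits were tested on simulated data. Alternatives were DESeq2 1.42.0, voom of limma 3.58.1, RLE scaling, no low-count filter, a replicate block, a term for library ranges, other lengths and leaving out muscles.

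The members and gene lists were chosen with earlier results of these data known. The genes named are all members, the 2 with the smallest p of each list, and the 3 most correlated with Nfkbia, Tnfaip3, Icam1 and Vcam1. Itga4, Itgal, Itgb7, Tab2, Ticam1, Cldn5, Tie1, Lum, Tnf and Il6 were named after their values were seen. A gene that this rule names is not reported here.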

Additional observations from a re-analysis of the deposited data

Results flagged for a closer look

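Nfkbia was the result that differed between sets of muscles: the log2 fold change within libraries 6 to 15 minus that in the other libraries was -0.589 (SE 0.24, edgeR unadjusted p = 0.0229, adjusted p = 0.348). Its treated muscles were lower in libraries 6 to 15 (log2 fold change -0.22) and higher in the others (0.37), where the library range and the treatment cannot be told apart. In 20 groups of values, 10 genes in each treatment, no muscle lay past Dixon's limit, where chance gives about 1.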

How the results depend on the processing

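No member passed the 5% false discovery rate under any alternative, in all muscles or in libraries 6 to 15. The count of members at an unadjusted p under 0.05 over all muscles, 2, became 1 with voom, 1 with a term for the 3 library ranges, and 1 with control 3, secretome 7 and secretome 8 left out together, an alternative added after seeing the data. Each time it was Icam1 that was lost (p = 0.0939 in limma, 0.0715 and 0.0572 in edgeR), and Vcam1 kept an unadjusted p under 0.05 over all muscles in every alternative. Leaving out 1 muscle gave counts from 1 (without control 3) to 4 (without control 1, 4, 5 or 10) over all muscles, from 2 to 5 in libraries 6 to 15 (5 without secretome 3), from 0 to 1 in the other libraries (1 without control 2 or secretome 10) and from 0 (without secretome 9) to 2 (without control 3) for the interaction. The order of the levels kept 6 of 10 positions with the longest coding transcript, also added after seeing the data, and 1 without length scaling. Small differences turned sign: Relb was at 0.011 with the replicate block and 0.014 in log2 CPM, Nfkbia at -0.024 with voom and -0.23 with the library ranges, and Tnfaip3 at 0.070 with the library ranges and 0.012 without the 3 muscles. With the term for library ranges, the treatment estimate comes only from libraries 6 to 15, the 1 range that holds both treatments. The fit on those libraries alone gave -0.22 for Nfkbia and 0.08 for Tnfaip3. Leaving out 1 muscle moved Relb between -0.10 and 0.083 and Nfkbia between -0.024 and 0.12 over all muscles, and in libraries 6 to 15 moved Nfkb2 between -0.50 and 0.073 and Relb between -0.26 and 0.066, where control 9 decided the highest values. The cause of the other changes of sign was not tested. Control and secretome samples share replicate numbers, but the sample titles state no pairing. The correlation of deviations ran from -0.27 to 0.23 over 10 pairs of equal number, with 3 over 0.1. The samples of each pair come from different library ranges, so these correlations cannot decide whether mice were matched by number. The replicate block left 0 members past the false discovery rate and 2 at an unadjusted p under 0.05, Vcam1 at -0.54 and Nfkbib at -0.25 (edgeR unadjusted p = 0.0468), with Icam1 at -0.48 (edgeR unadjusted p = 0.0967, adjusted p = 0.428). Vcam1, with 37 to 124 reads per library, carried the most counting error of the members.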
